A study of Mus musculus with 4 samples.

Results

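The regions described here are the transition zones of the mouse autosomes, where a long stretch of one chromatin compartment in wildtype cells gives way to a long stretch of the other. They were found on the compartment eigenvector of wildtype cells, a profile in bins of 200 kb whose sign divides each chromosome into a positive and a negative compartment. A zone was a change of sign between 2 runs of at least 5 adjacent bins (1 Mb) of equal sign, and its extent was the 2 bins (400 kb) on each side of the change. The rule found 325 zones among the 1489 sign changes of the 19 autosomes (21.8%). They cover 1300 bins of 200 kb, none of them shared between zones. Of the zones, 157 run from negative to positive along the chromosome and 168 the other way, and all were read from negative to positive. Because the wildtype eigenvector chose the zones, its values there are a description and no test is given for the eigenvector.

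The cells were blood progenitors from mouse bone marrow, left after mature cells bearing lineage markers had been depleted. The study set 2 Hi-C libraries labelled Stag2 knock-out against 2 labelled wildtype. Hi-C ligates and sequences DNA fragments that neighbour each other in the nucleus, and here it followed version 2.0 of the protocol with DpnII as the cutting enzyme. The labels do not give the age of the animals, the way in which Stag2 was deleted, or how many animals were used. Every p-value therefore measures only how far single libraries spread, which may be technical. The identity of the cells cannot be checked on contact scores, which hold no marker expression.

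In mammalian nuclei, gene-rich and active chromatin tends to contact other active chromatin (the A compartment), and gene-poor, inactive chromatin contacts its own kind (the B compartment). An eigenvector of the contact matrix separates them, and its positive side is by common usage A, although the sources used here do not say how the sign was set. Within compartments, cohesin rings extrude loops of chromatin until they meet CTCF, which gives domains with insulated edges. Stag2 encodes a subunit of cohesin, and its paralog Stag1 can take its place in the ring. Loop extrusion and compartment segregation are known to oppose each other, which makes the border between compartments a place where both act.

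The insulation score of a 20 kb bin compares the contacts that cross the bin with those of its surroundings, and low values stand for positions with few contacts across them. Single libraries held scores in 117486 to 120151 bins, and 117252 bins were scored in all 4. Of the 13000 bins of 20 kb in the zones, 12949 were scored in all 4 libraries, and 320 of the 325 zones were scored throughout. A zone of chromosome 3 from 21800001 to 22600000 (mm9) had 17 scored bins, too few on its negative side for a step, and 324 zones entered the comparisons that need both sides. Sequencing depth is unknown, and the sources used here give neither the window nor the log base of the score.

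The runs that meet in the zones had a median length of 2000 kb on the negative and 1800 kb on the positive side, and reached 12400 kb and 13600 kb. At 88 zones a run was exactly 5 bins long, just inside the rule, and at 116 further sign changes the shorter run was 4 bins long, just outside it. The rise in score from the negative to the positive side was 0.251 in wildtype and 0.273 in knock-out for the former, and 0.129 and 0.141 for the latter. The step was thus larger just inside the rule than just outside it, in both genotypes.

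In all 4 libraries the transition from negative to positive compartment was marked by a deep trough of insulation. Averaged over zones the score declined toward the change from within the negative run, reached its lowest value 30 kb before the sign change, and then climbed steeply to a peak 530 kb inside the positive run. At the trough the wildtype libraries averaged -0.755 and -0.761, and the knock-out libraries averaged -0.712 and -0.745. At the peak it was 0.264 and 0.268 in wildtype and 0.273 and 0.268 in knock-out. The trough and the peak lay at the same distances in the mean of each genotype.

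**Figure D1:**
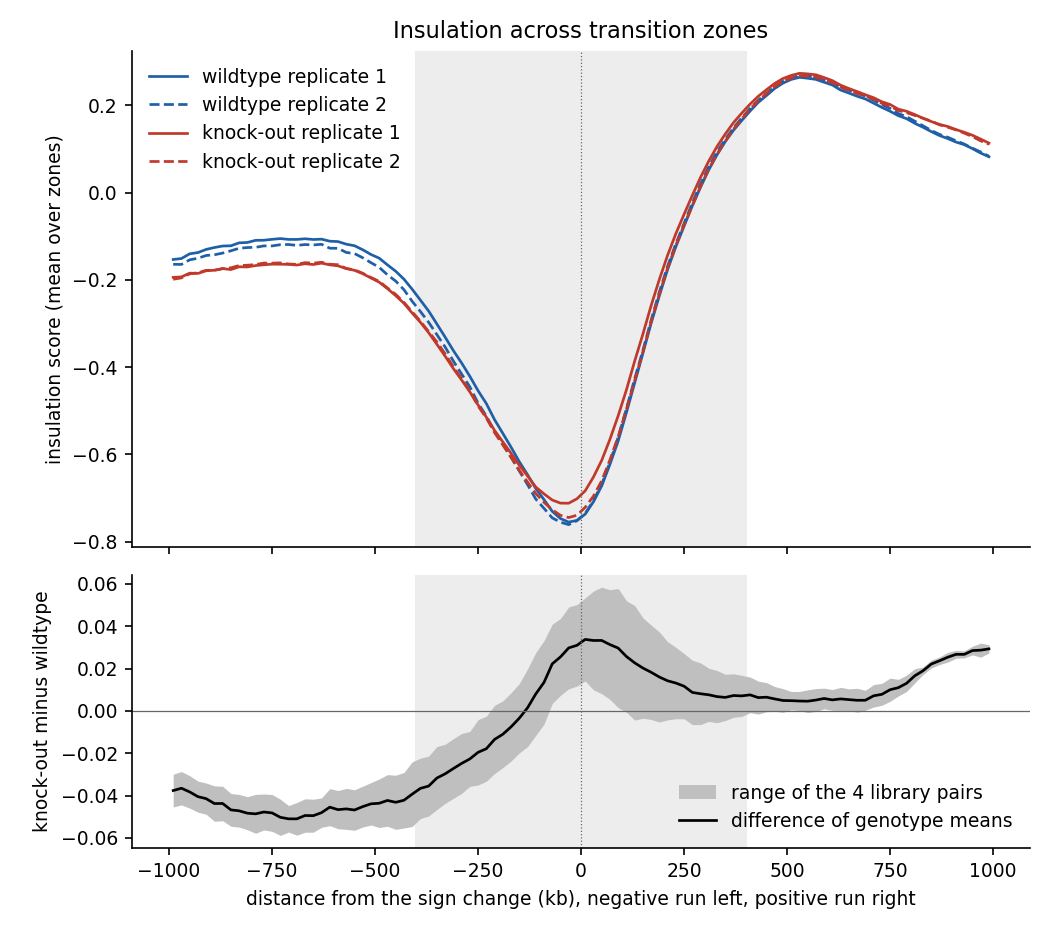
Mean insulation score of each library against the distance from the sign change in kb (upper panel), and knock-out minus wildtype (lower panel, line for the difference of genotype means, band for the range over the 4 pairs of libraries). The shaded span is the zone of 400 kb on each side. The libraries share a trough 30 kb before the change. The knock-out libraries lie below wildtype from -990 kb to -230 kb and above it from -70 kb to the change. The difference is 0.0338 at 10 kb and 0.00507 at 690 kb.

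The genotypes differed along this profile in a graded way, and on the deposited scores the sign of the difference turned inside the zone. In the negative run each knock-out library averaged less than each wildtype library at every distance from 990 kb to 230 kb before the change. The difference was greatest 690 kb before the change, where the wildtype libraries were at -0.107 and -0.121 and the knock-out libraries at -0.166 and -0.164. It turned positive 130 kb before the change. The place of this turn, and the distances at which libraries overlap, depend on the offset between libraries. Centring each library on its median shifts the difference by the same amount at every distance. It took the mean difference on the negative side of the zones from -0.00725 to 0.0155. The profile was not recomputed on centred scores. At 10 kb past the change the knock-out libraries were at -0.683 and -0.721, both above the wildtype libraries at -0.737 and -0.735, a difference of 0.0338. Knock-out replicate 1 accounted for most of that rise, since knock-out replicate 2 lay much closer to wildtype. Between 110 kb and 490 kb into the positive run the libraries of the genotypes overlapped at every distance. Farther in, the difference grew again and was 0.0293 at 990 kb, where the wildtype libraries were at 0.0822 and 0.0833 and the knock-out libraries at 0.113 and 0.111.

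On the deposited scores, averages over the 400 kb of each side hardly separated the genotypes. On the negative side the wildtype libraries were at -0.528 and -0.549 and the knock-out libraries at -0.541 and -0.550, which overlap. The difference of -0.00725 was smaller than the range of 0.0211 within wildtype (two-sided exact permutation test, p = 0.67), and it was positive, 0.0155, when each library was centred on its median. On the positive side the wildtype libraries were at -0.248 and -0.242 and the knock-out libraries at -0.212 and -0.243, a difference of 0.0178 (exact permutation p = 0.67). Knock-out replicate 1 set that value, which was 0.00200 without it. With each library centred on its median the positive side differed by 0.0405. Scaling to unit SD gave 0.0675 on the positive and 0.0460 on the negative side, in SD units. Under either setting both sides were higher in knock-out, each with an exact permutation p of 0.33, the smallest possible. How far the genotypes separate on each side thus depends on a shift or scale of whole libraries.

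The step of a zone, its positive side minus its negative side, was slightly larger in knock-out on average, by no more than the spread within a genotype. Its mean over zones was 0.290 ± 0.0192 for wildtype and 0.315 ± 0.0160 for knock-out (SD, n = 2). The single libraries were at 0.276 and 0.303 in wildtype and at 0.326 and 0.304 in knock-out, so that wildtype replicate 2 and knock-out replicate 2 were level. The difference of 0.0251 is smaller than the range of 0.0272 within wildtype, and the exact permutation test gave p = 0.33, the smallest p that 2 against 2 libraries allow. It was 0.0115 without wildtype replicate 1, 0.0387 without wildtype replicate 2 and 0.0139 without knock-out replicate 1.

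Interiors of long autosomal runs, whether or not they border a zone, behaved differently from the zones. In run interiors, bins at least 5 bins from either end of a run, the positive compartment had higher and the negative compartment lower scores in knock-out. Over 1879 interior bins of positive runs the wildtype libraries were at 0.245 and 0.252 and the knock-out libraries at 0.313 and 0.320. Over 1785 scored interior bins of negative runs they were at -0.120 and -0.119 in wildtype and at -0.213 and -0.216 in knock-out. The libraries of the genotypes are far apart here relative to their spread.

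The interior contrast, positive minus negative interior, was thus 0.368 ± 0.00412 for wildtype and 0.531 ± 0.00777 for knock-out (SD, n = 2), which differ by 0.163. The step of the zones differed by 0.0251, so the step minus the interior contrast went from -0.0887 and -0.0673 in the wildtype libraries to -0.199 and -0.233 in the knock-out libraries. That difference of -0.138 is about 4 times the largest range within a genotype, 0.0336. The two-sided exact permutation test gave its smallest possible p, 0.33. Leaving out 1 library at a time gave -0.155 to -0.121, and scaling each library to unit SD gave -0.292 in SD units. Relative to the interiors, the negative side of the zones lay 0.0878 higher in knock-out than in wildtype, and the positive side 0.0503 lower. Interiors come from all autosomal runs of 11 or more bins, also those that border no zone, whereas zones also border shorter runs. In the runs that meet at the zones, scores 800 to 1000 kb from the change differed less. The difference there was -0.0434 in the negative and 0.0245 in the positive run, against -0.0951 and 0.0681 in the interiors. Where both runs were at least 10 bins long (80 zones), the step differed by 0.0383.

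**Figure D2:**
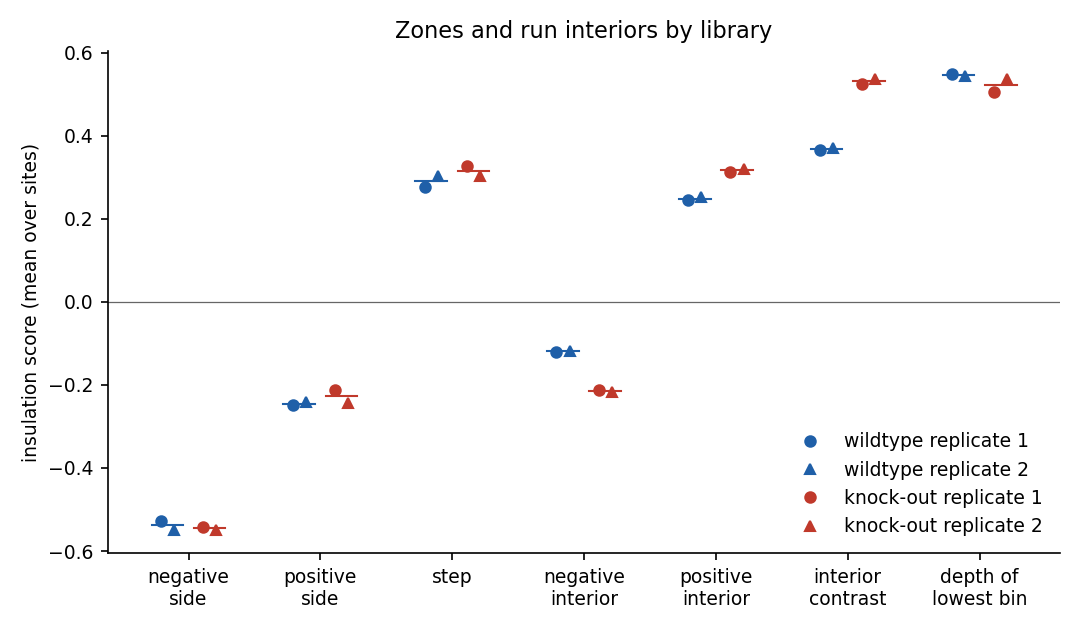
Mean insulation score of each library (points) and of each genotype (lines) on both sides of the zones, their step, both interiors, the interior contrast and the depth of the lowest bin. The interior contrast separates the genotypes (0.365 and 0.371 against 0.525 and 0.536), whereas the step does so only narrowly (0.276 and 0.303 against 0.326 and 0.304).

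Tests of single bins showed the same gradation. In limma's fit over all 117252 scored bins, 22.4% of bins passed an adjusted p of 0.05, 11.2% higher and 11.2% lower in knock-out. On the negative side of the zones, 459 of 6453 bins (7.11%) were called higher and 407 (6.31%) lower. On the positive side 611 of 6496 (9.41%) were called higher and 400 (6.16%) lower. All 4 shares are below the background of 11.2% in each direction, and 134 of the 325 zones held no called bin. By contrast 30.8% of interior bins of negative runs were called lower and 0.684% higher, and 30.6% of interior bins of positive runs were called higher and 1.22% lower.

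Counted from the sign change, the share called lower on the negative side went from 15.4% in the fifth bin of 200 kb to 13.2% in the third and 4.67% in the first. The share called higher there went the other way, from 3.36% in the fifth bin to 9.58% in the first. In the positive run the share called higher was 10.4% in the first bin, 8.40% in the second and 14.5% in the fifth, and the share called lower stayed between 4.87% and 7.45%. Fewer bins were called when a wildtype library was left out. Without wildtype replicate 1 the calls on the negative side came to 3.18% higher and 0.961% lower, and on the positive side to 3.56% higher and 1.92% lower. Without wildtype replicate 2 the corresponding shares were 2.88%, 1.47%, 4.02% and 1.09%. Without knock-out replicate 2 the share called higher on the positive side was 15.4%.

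**Figure D3:**
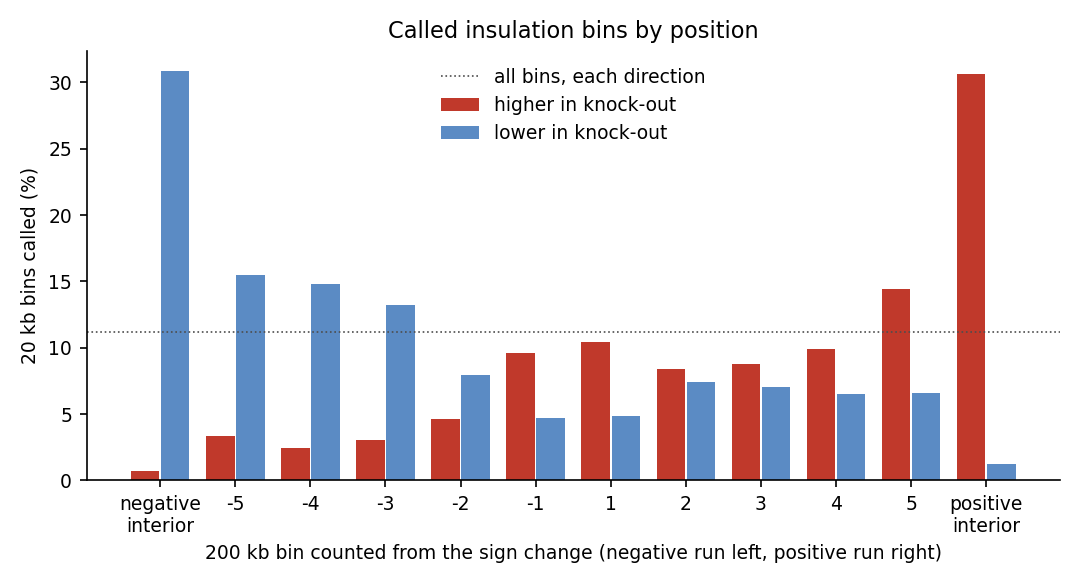
Share of 20 kb bins (percent) called higher or lower in knock-out at an adjusted p below 0.05, by position of the 200 kb bin relative to the sign change, with the interiors of both kinds of run at the ends. The dotted line is the share of all bins called higher, 11.2%. Calls lower in knock-out fall from 30.8% in negative interiors to 4.67% beside the change, and calls higher are 10.4% just past it.

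The lowest 20 kb bin within 400 kb of the change, located on the mean of all 4 libraries, marks the trough of each zone. Its median position was 30 kb before the change, with quartiles of -90 kb and 50 kb, and it lay within 200 kb of the change in 265 of 324 zones (81.8%). It lay on the negative side in 188 zones and on the positive side in 136, and at the edge of the window, where it may be no local minimum, in 14. Its depth below the mean of the zone had a median of 0.520 in wildtype, against 0.353 over the 11165 junctions of autosomal 200 kb bins, and 244 of 324 zones exceeded that second value. The insulation minimum is thus a common trait of the zones that the eigenvector did not select for directly, although both profiles may come from the same reads.

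The trough was on average shallower in knock-out. The wildtype libraries had mean depths of 0.549 and 0.543, and the knock-out libraries of 0.506 and 0.537. Both knock-out libraries lie below wildtype, replicate 2 by little. The difference of -0.0245 does not exceed the gap of 0.0306 between the knock-out libraries (exact permutation p = 0.33). Leaving out knock-out replicate 1 gave -0.0129, and leaving out replicate 2 gave -0.0426. On 19 of 19 chromosomes the mean difference was below 0, but they share the same 4 libraries and are not separate replicates. The median difference was -0.0251 over zones and -0.00462 over all junctions. In 121 zones (37.3%) both knock-out libraries were shallower than both wildtype libraries and in 60 zones (18.5%) both were deeper, against 27.6% and 24.4% of all junctions.

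The genotypes differed in depth more at zones than inside the runs. Inside positive runs the same measure was 0.372 and 0.364 in wildtype and 0.358 and 0.384 in knock-out, which overlap, and inside negative runs it was 0.170 and 0.174 in wildtype and 0.177 and 0.190 in knock-out. The excess depth of zones over the inside of positive runs was 0.178 and 0.179 for wildtype, and 0.148 and 0.152 for knock-out. That difference of -0.0280 is larger than either range within a genotype, 0.000951 and 0.00457, and the exact permutation test again gave its smallest p, 0.33.

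Single troughs seldom passed the test. Limma on the depth at all 11165 junctions, a test added after the profiles were seen, called 0.976% of junctions, 0.340% deeper and 0.636% shallower in knock-out. Among the zones it called 2 shallower and 0 deeper, with 53 and 21 at an unadjusted p below 0.05. The share of all junctions at that unadjusted p was not computed. With a knock-out library left out more zones were called, and with a wildtype library left out fewer. The calls over all junctions moved the same way, so these moves are not particular to the zones. Without a trend in the variance limma called 1 zone shallower and 0 deeper, and with robust variances 4 and 0. Over all 11165 junctions these settings called 65 and 156 in either direction.

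The first of these 2 zones lies on chromosome 2 from 36800001 to 37600000, with its lowest bin from 37160001 to 37180000, 30 kb before the change. It was 0.896 and 0.887 deep in wildtype and 0.483 and 0.607 deep in knock-out (limma on all junctions, adjusted p = 0.0334). The trough remained visible in both knock-out libraries but was much shallower. The second lies on chromosome 9 from 72800001 to 73600000, where the depth at the bin from 73000001 to 73020000 was 0.335 and 0.328 in wildtype and 0.0425 and 0.145 in knock-out (adjusted p = 0.0378). That bin is 190 kb inside the positive run.

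The deepest trough was also shallower in both knock-out libraries, without passing the test. In the zone of chromosome 12 from 69800001 to 70600000, chosen after its values were seen, the score of the lowest bin was -2.30 and -2.27 in wildtype and -2.12 and -2.22 in knock-out. Its depth was 1.41 and 1.36 in wildtype and 1.20 and 1.32 in knock-out (difference -0.126, limma adjusted p = 0.328). Grouped by depth over all 4 libraries, the 108 deepest zones went from 0.832 and 0.826 in wildtype to 0.755 and 0.803 in knock-out. The 108 shallowest went from 0.293 and 0.289 to 0.275 and 0.290, and there the genotypes overlap.

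Zones differed widely among themselves in their step. The wildtype step ranged from -0.782 to 1.32, with 10% of zones below -0.202 and 10% above 0.866. It was above 0 in 244 of 324 zones (75.3%). In the 80 zones with a step below 0 the lowest bin lay on the positive side in 76, at a median of 90 kb past the change. In the other 244 it lay on the positive side in 60, at a median of -50 kb. The sign of the step thus went with the side on which the trough falls. This is partly built in, because both are read from the same bins and a trough lowers the mean of its side.

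The order of the zones was shared by the genotypes. Across 324 zones the wildtype step correlated with the knock-out step at a Pearson's r of 0.970, a description, since zones of a library share its depth and normalization. The SD across zones of the difference between libraries was 0.0581 within wildtype and 0.0692 within knock-out. That of the difference between genotype means was 0.0973. The last is a difference of means of 2 libraries and the others are differences of single libraries, so they are unlike measures. Across zones, the step difference taken from the replicate 1 libraries alone and that from the replicate 2 libraries alone had an r of 0.629.

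Limma on the step at every junction called 904 of 11165 (8.10%). Oriented by the wildtype eigenvector, 4.09% of junctions had a larger step in knock-out and 4.0% (443 of 11069) a smaller one. Among the 324 zones 29 (8.95%) had a larger and 14 (4.32%) a smaller step, so the excess over the background was in the larger steps. Both knock-out libraries were above both wildtype libraries in 125 zones (38.6%) and below both in 68 (21.0%), against 29.7% and 28.2% of all junctions. The median difference was 0.0259 over zones and 0.00236 over all junctions. These calls needed both wildtype libraries. Without either of them limma called 0 zones in either direction, and 0 of all junctions, with 44 larger and 35 smaller at an unadjusted p below 0.05 without wildtype replicate 1, and 60 and 21 without replicate 2. With 1 bin on each side it also called 0 zones, and 0 of 11252 junctions. There 63 zones were larger and 34 smaller at an unadjusted p below 0.05. The share of all junctions at that unadjusted p was not computed. Without knock-out replicate 2 more zones were called, but so were more of all junctions.

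The 29 larger steps held differences on both sides. Scores were lower on the negative side in 28 of them and higher on the positive side in 26, with median differences of -0.120 and 0.0742. They lay on 15 chromosomes, and their adjusted p ran from 0.0196 to 0.0467. In the 14 smaller steps the larger difference was a rise on the negative side, higher in knock-out in 13 of 14. Its median was 0.123, against -0.0414 on the positive side. The directions in both groups are partly built in, because the zones were called on the difference between these same sides. Over all 324 zones, 94 were lower on the negative and higher on the positive side in knock-out, and 45 the reverse.

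**Figure D4:**
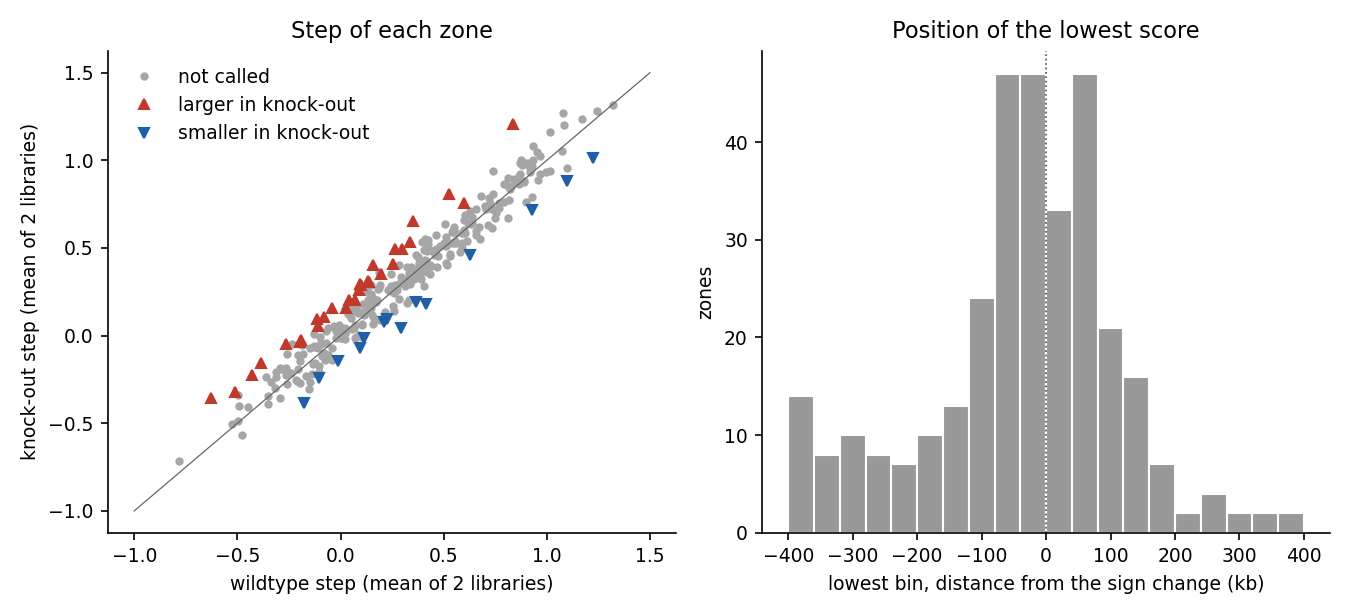
Left, step of each of the 324 zones in knock-out against wildtype (means of 2 libraries, score units), with zones called by limma marked and the line of equality drawn; 29 lie above and 14 below it. Right, number of zones by the distance of the lowest bin from the sign change in kb, in bars of 40 kb, with a median of -30 kb.

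The named zones are the 10 largest increases and the 5 largest decreases in step, among zones more than 1 Mb from where scores begin or end on the chromosome. As extremes of a ranking, their differences are likely to be smaller in a repeat measurement. The greatest increase lay on chromosome 3 from 30800001 to 31600000, where the wildtype libraries had steps of 0.275 and 0.425 and the knock-out libraries of 0.604 and 0.700. The difference of 0.302 (SE 0.0549, limma adjusted p = 0.0262) came from the positive side, where 19 of 20 bins were called higher and scores went from -0.0655 and -0.0269 to 0.240 and 0.168. The wildtype libraries lay almost as far apart as the nearer pair of wildtype and knock-out libraries.

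On chromosome 13 from 24800001 to 25600000 the step was 0.526 and 0.523 in wildtype and 0.857 and 0.761 in knock-out (limma adjusted p = 0.0202). Here both sides moved, with 8 bins called lower on the negative side and 12 called higher on the positive side. This zone sits in a very low stretch, with negative-side scores of -1.44 and -1.42 in wildtype and -1.61 and -1.54 in knock-out. On chromosome 5 from 134000001 to 134800000 the step was below 0 in every library and closer to 0 in knock-out, at -0.602 and -0.653 in wildtype and -0.308 and -0.407 in knock-out (limma adjusted p = 0.0214). Its trough lies 130 kb past the change, and 12 bins of the negative side were called lower.

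On chromosome 2 from 162200001 to 163000000 the step was 0.139 and 0.175 in wildtype and 0.397 and 0.404 in knock-out, the closest knock-out pair among the 15 named zones (limma adjusted p = 0.0196). On chromosome 14 from 79800001 to 80600000 it was 0.255 and 0.270 in wildtype and 0.536 and 0.456 in knock-out. Both zones had lower scores before the change and higher scores after it in knock-out. The zone of chromosome 1 from 73400001 to 74200000 did too, with steps of -0.401 and -0.369 in wildtype and -0.0933 and -0.216 in knock-out.

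Several increases rested on the negative side. On chromosome 4 from 109400001 to 110200000 all 20 bins of that side were called lower, with scores of -0.676 and -0.689 in wildtype and -0.894 and -0.888 in knock-out, whereas the positive side differed by 0.00528. Another zone of chromosome 4, from 151600001 to 152400000, had 15 bins called lower on the negative side and none called on the positive side. On chromosome 6 from 67200001 to 68000000, 13 bins of the negative side were called lower, and the step was 0.0332 and 0.152 in wildtype and 0.327 and 0.260 in knock-out. The wildtype libraries are far apart there.

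The zone of chromosome 9 from 72800001 to 73600000, already named for its trough, was the exception among the 10. Both its sides rose, with 8 bins called higher on the negative and 20 of 20 on the positive side. Positive-side scores went from -0.534 and -0.560 in wildtype to -0.152 and -0.309 in knock-out, the latter pair well apart. Its step of -0.110 and -0.121 became 0.172 and 0.0180 (limma adjusted p = 0.0431), and the call was lost without knock-out replicate 1 (adjusted p = 0.0520), as was that of the chromosome 6 zone (adjusted p = 0.0661).

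The 5 named decreases share a rise on the negative side, called in 3 to 20 of its 20 bins. On chromosome 5 from 130400001 to 131200000 the step was 0.274 and 0.315 in wildtype and 0.0360 and 0.0528 in knock-out (limma adjusted p = 0.0196), with 19 bins of the negative side called higher. On chromosome 9 from 49800001 to 50600000 it was 0.385 and 0.441 in wildtype and 0.170 and 0.188 in knock-out (limma adjusted p = 0.0202). All 20 bins of the negative side were called higher there, from -0.440 and -0.468 to -0.103 and -0.152. This is the single named step zone whose eigenvector changed sign in a bin, from -0.0115 in wildtype to 0.00180 in knock-out just before the change.

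The other 3 decreases had large steps. On chromosome 10 from 38400001 to 39200000 the step was 1.04 and 1.15 in wildtype and 0.894 and 0.874 in knock-out. On chromosome 1 from 43800001 to 44600000 it was 1.16 and 1.28 in wildtype and 0.988 and 1.03 in knock-out. The zones kept a steep rise in knock-out, since their steps remained among the higher ones. On chromosome 17 from 72800001 to 73600000 it was 0.919 and 0.941 in wildtype and 0.674 and 0.761 in knock-out, with 3 bins of the negative side called higher and 11 of the positive side called lower. In all 15 named zones the libraries of the genotypes did not overlap in step. This is largely built in, because the zones were chosen by that same difference. Over all zones both knock-out libraries were above both wildtype libraries in 38.6% and below both in 21.0%. The calls of all 15 needed both wildtype libraries. One called zone with a larger change lay within 1 Mb of a chromosome end and so outside the rule. On chromosome 10 from 128000001 to 128800000 the step was 0.704 and 0.967 in wildtype and 1.18 and 1.23 in knock-out (limma adjusted p = 0.0327).

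The eigenvector itself came as 1 profile per genotype, without a replicate, and its scale differs between chromosomes. Across the zones it changed little in knock-out. In the deposited values, before any centring, the change lay mainly on the positive side. The first positive bin averaged 0.0252 in wildtype and 0.0225 in knock-out, and it was lower in knock-out in 238 of 325 zones (73.2%). The second positive bin averaged 0.0376 and 0.0358 and was lower in 206 zones (63.4%). The first negative bin averaged -0.0237 and -0.0238 and was lower in 172 (52.9%). Zones set by the knock-out eigenvector gave a like picture, with the first positive bin lower in knock-out in 227 of 314 (72.3%).

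Positive interiors differed the other way. Of their 1879 bins 21.9% were lower in knock-out, with a median difference of 0.00156, against -0.00243 in the first positive bin of the zones. Over all autosomal bins 53.0% were lower. The eigenvectors also differ by an offset, since the chromosome median was lower in knock-out on 17 of 19 autosomes (median over chromosomes -0.0017). With each chromosome centred on its median the first positive bin was lower in 59.5% of 316 zones and the first negative bin in 36.1%, so lower positive bins were then matched by higher negative bins.

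**Figure D5:**
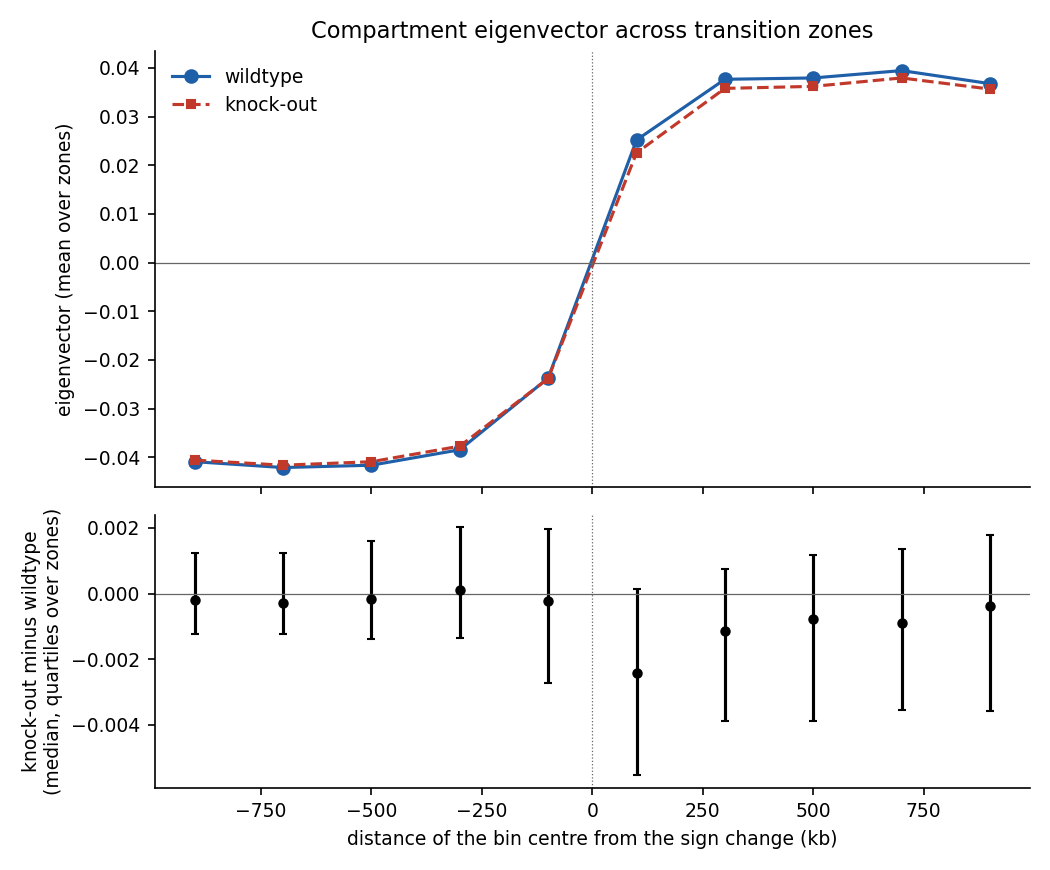
Mean eigenvector of wildtype and knock-out (upper panel) and knock-out minus wildtype (lower panel, median with quartiles over 325 zones) in the 5 bins of 200 kb on each side of the change, by distance of the bin centre in kb. The first positive bin has the lowest median difference, -0.00243.

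The sign change kept its place in most zones. In 295 of 325 (90.8%) the knock-out eigenvector changed sign at the same junction. In 19 it did so 1 bin into the positive run and in 11 it did so 1 bin into the negative run, and none moved farther. By linear interpolation between bin centres the change lay a median of 6.85 kb toward the positive run in knock-out (quartiles -2.88 kb and 19.8 kb), and toward it in 220 zones. That direction depended on the offset, because with centred eigenvectors the median shift was -0.230 kb, and 8 zones moved into the positive and 20 into the negative run. In the zones 35 of 1300 bins (2.69%) had another sign in knock-out, against 250 of 11670 (2.14%) over all autosomal bins.

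Zones in which the sign change moved differed in their scores as well, although both measures may rest on the same reads. In the 11 zones where it moved into the negative run, positive-side scores were 0.0305 and 0.0512 in wildtype and 0.150 and 0.107 in knock-out. In the 19 where it moved into the positive run they were -0.159 and -0.155 in wildtype and -0.171 and -0.172 in knock-out. Higher scores thus went with a compartment border that had moved toward the negative run. Across all 325 zones Pearson's r between the mean eigenvector difference of the 4 bins and the mean score difference was 0.412, a description over zones that share libraries.

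The farthest moves came from zones whose first positive bin was close to 0 in wildtype, between 0.00022 and 0.0106. On chromosome 7 from 72200001 to 73000000 the change moved by -241 kb, toward the negative run, with first-bin values of -0.00854 and 0.00022 in wildtype and 0.0109 and 0.00605 in knock-out. On chromosomes 14 (from 23400001), 2 (from 45200001 and from 58800001) and 10 (from 16000001) it moved by -166 kb to -129 kb. Of these 5 zones, the one on chromosome 2 from 58800001 had the most called bins, with 8 called higher on the negative and 6 on the positive side. Toward the positive run the longest move was 177 kb on chromosome 2 from 104600001 to 105400000, where the first positive bin went from 0.00508 to -0.00300 and no bin was called. On chromosome 13 from 105400001 to 106200000 the change moved 164 kb and 7 bins of the positive side were called lower. The other 3, on chromosome 1 from 175800001, chromosome 9 from 22600001 and chromosome 6 from 141800001, moved between 93.3 kb and 157 kb, and the 3 held 1 called bin in all. None of these 10 zones passed the test of the step, with limma adjusted p from 0.0665 to 0.835.

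The zones were spread over every autosome, from 9 on chromosomes 14 and 19 to 33 on chromosome 3. The mean step difference was above 0 on 15 of 19 chromosomes, which share the same 4 libraries. It was least on chromosome 17, at -0.00510 over 18 zones, and greatest on chromosome 14, at 0.0794 over 9 zones. The direction along the chromosome made little difference to the step within a genotype. The step was 0.293 ± 0.0186 in wildtype and 0.310 ± 0.0152 in knock-out for zones running from negative to positive (SD, n = 2). For the reverse it was 0.287 ± 0.0199 and 0.319 ± 0.0167. The genotypes differed by 0.0178 in the former, where the libraries overlap, and by 0.0320 in the latter, where they do not (exact permutation p = 0.67 and 0.33). Zones beside the longest negative runs, of 20 bins or more, had larger steps in all libraries. They were 0.386 and 0.405 in wildtype and 0.445 and 0.423 in knock-out over 57 zones. Positive runs showed the reverse. Beside those of 20 bins or more (67 zones) steps were 0.185 and 0.211 in wildtype and 0.239 and 0.223 in knock-out. Beside positive runs of 5 to 9 bins (167 zones) they were 0.318 and 0.343, and 0.359 and 0.337.

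Compared with the 1164 sign changes that border a shorter run, of which 1078 could be scored, the zones had a larger step and a deeper trough in every library. Where the shorter run is under 400 kb long, the side of the step reaches past it into the opposite compartment. A smaller step at such changes is thus partly built in. The step of those other changes was 0.134 and 0.145 in wildtype and 0.139 and 0.124 in knock-out, which overlap. The excess of the zones over them was 0.143 and 0.159 for wildtype, and 0.187 and 0.180 for knock-out. That difference of 0.0329 is larger than the ranges within a genotype, 0.0161 and 0.00783, and the exact permutation test gave p = 0.33, its smallest value. How far the reach of the sides past short runs enters the excess, or its difference between genotypes, was not tested. The trough depth of the other changes was 0.426 and 0.423 in wildtype and 0.406 and 0.427 in knock-out, which overlap, and the excess depth of the zones was 0.123 and 0.120 in wildtype and 0.0998 and 0.109 in knock-out.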

How the data were processed

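Hi-C profiles of 4 libraries were grouped by genotype label, with 2 libraries in each group. Replicate numbers follow accession order and pair no libraries. The authors deposited each value as a score: insulation scores of single libraries in 20 kb bins, insulation scores of 1 profile per genotype in 10 kb bins, and, also per genotype, an eigenvector in 200 kb bins, as the file headers name them. Columns of single libraries were matched to samples by the number in the title. The build is mm9, per the submitters' processing notes. How reads were aligned and filtered, matrices balanced and libraries pooled is not given in the sources used here. Depth is unknown, so no counting interval was computed. No gene is named, because an annotation of mm9 was not used here.

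A missing bin or a value of 0 ended a run. Bins with a score in all 4 libraries were used, and a side needed at least 10 of its 20 bins. Tests were limma 3.58.1 in R 4.3.3 (lmFit and eBayes with a trend) with genotype as the only term, over all scored bins, and over the step and the trough depth at all autosomal junctions, with Benjamini-Hochberg adjustment at 0.05, and exact permutation tests over libraries. Neighbouring junctions share bins. The limma steps were tested on simulated scores. The zones, lists and tests were chosen with earlier results of these data known. The rule for named zones took the 10 largest increases and 5 largest decreases in step among zones more than 1 Mb from a chromosome end, and the 5 zones with the farthest move of the sign change in each direction. Alternatives covered run length, bins per side, scaling, libraries left out, variance model and the profile that sets the zones.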

Additional observations from a re-analysis of the deposited data

How the results depend on the processing

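Of 16 results with 152 alternative values, the mean step and its difference from the interior contrast kept their sign under every alternative run. The ranges were 0.0115 to 0.0387 and -0.292 to -0.117. The value of -0.292 is in SD units, after scaling each library to unit SD, whereas -0.117 is in score units. Leaving out 1 library at a time moved the positive side between 0.00200 and 0.0335 and the trough depth between -0.0426 and -0.0129. The mean difference on the negative side changed sign. It was 0.00355 with runs of at least 3 bins, 0.0111 with 1 bin on each side, 0.0460 after scaling to unit SD, 0.0155 after centring, and from -0.0178 to 0.00330 with 1 library left out.

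The share of zones with a larger step was 0% with 1 bin on each side, 14.9% with 3 bins and from 0% to 16.4% with 1 library left out. The share with a smaller step was 0%, 6.83% and from 0% to 5.25% under these settings and 7.41% after scaling to unit SD. Why no zone was called in some settings was not tested. Bins of the negative side called higher were 2.44% with runs of at least 10 bins and from 2.88% to 9.33% with 1 library left out, and those called lower were 3.73% after scaling, 3.47% after centring and from 0.961% to 8.96%. On the positive side, bins called higher were 6.19% with runs of at least 10 bins and from 3.56% to 15.4%, and bins called lower were 3.39% after centring and from 1.09% to 8.08%. The cause of the other moves was not tested.

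The knock-out sign change lay in the positive run in 3.75% of zones with runs of at least 10 bins and in 2.53% with centred eigenvectors. It lay in the negative run in 6.33% with centred eigenvectors, 1.91% in zones set by the knock-out eigenvector and 2.17% in zones set by the mean eigenvector. Centring turned the median shift to -0.230 kb and the first negative bin to 0.00139. Zones set by the knock-out or mean profile, and centring for the eigenvector differences, were chosen after seeing the data, as was scaling for the interior contrast. No paired analysis was possible because replicate numbers in accession order name libraries only. With 2 libraries per genotype no exact test can go below 0.33.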
